A study of Homo sapiens with 2 samples.

Results

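The KMT2D and lymphoma-mutated chromatin regulator loci are 9 stretches of the genome, one around each of the genes KMT2D, KMT2C, KMT2A, CREBBP, EP300, EZH2, ARID1A, TET2 and SMARCA4. A peak of the deposited KMT2D ChIP-seq list was a member when its highest point lay in one of these fixed windows on hg19, whatever its height. The rule gave 52 of the 24824 listed peaks, and 8 of the 9 windows held at least 1. The data came from OCI-LY7, an established tumour line of the germinal centre B-cell-like type of diffuse large B-cell lymphoma, labelled wild type. Cells were fixed with formaldehyde, and their chromatin was precipitated with an antibody raised against the N-terminus of human KMT2D. An input library of the same line was made without antibody and has no values of its own here. With 1 line and 1 ChIP library there was no replicate, so no test between conditions was possible, and how deeply it was sequenced is not known. A peak list carries no expression values, so the labelled cell type could not be checked against marker genes.

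The genes encode enzymes and subunits that set the state of chromatin. KMT2D and its paralog KMT2C are the catalytic subunits of related complexes that methylate histone H3 at lysine 4, chiefly at enhancers, whereas KMT2A does so chiefly at promoters and is a frequent fusion partner in leukaemia. CREBBP and EP300 are paralogous acetyltransferases that mark active enhancers, and EZH2 is the methyltransferase of the Polycomb repressive complex. ARID1A and SMARCA4 belong to the SWI/SNF (BAF) nucleosome remodelling complexes, as DNA-binding subunit and ATPase, and TET2 oxidises methylated cytosine. Several of them, KMT2D, CREBBP and EZH2 foremost, are recurrently mutated in germinal centre lymphomas. The peaks described here show where KMT2D protein was found near these genes, and a window also takes in neighbouring genes, so a peak in it is not assigned to the named gene.

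Peak sequences could not be read, because no hg19 genome was used. To show what kind of start site these genes have, the 250 bases before the annotated start were taken from RefSeq on GRCh38.p14 for KMT2D, the gene of the factor itself, for SMARCA4, whose window held the most peaks, and for TET2, whose window held none. They were not placed relative to the hg19 peaks, and the coordinates of the 2 builds must not be compared. CpG dinucleotides are in capitals. KMT2D lies on the minus strand at chr12:49060795-49061044, SMARCA4 (first of 2 entries) on the plus strand at chr19:10960780-10961029, and TET2 (second of 2 entries) on the plus strand at chr4:105146626-105146875.
KMT2D: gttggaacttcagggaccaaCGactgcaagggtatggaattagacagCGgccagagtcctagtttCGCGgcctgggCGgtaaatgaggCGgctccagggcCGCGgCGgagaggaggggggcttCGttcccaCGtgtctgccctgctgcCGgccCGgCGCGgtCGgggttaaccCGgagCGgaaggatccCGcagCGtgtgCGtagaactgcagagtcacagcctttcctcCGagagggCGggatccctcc
SMARCA4: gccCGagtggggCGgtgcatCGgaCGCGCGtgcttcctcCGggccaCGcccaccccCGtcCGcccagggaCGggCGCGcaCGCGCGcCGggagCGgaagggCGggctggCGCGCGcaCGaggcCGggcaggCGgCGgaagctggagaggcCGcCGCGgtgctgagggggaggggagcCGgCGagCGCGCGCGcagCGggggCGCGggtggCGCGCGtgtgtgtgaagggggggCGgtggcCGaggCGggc
TET2: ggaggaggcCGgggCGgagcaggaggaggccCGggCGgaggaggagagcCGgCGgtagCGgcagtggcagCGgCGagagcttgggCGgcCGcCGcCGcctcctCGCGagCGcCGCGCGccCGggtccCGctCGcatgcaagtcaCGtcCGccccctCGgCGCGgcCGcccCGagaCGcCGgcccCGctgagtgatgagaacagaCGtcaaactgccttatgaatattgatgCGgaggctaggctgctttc

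The KMT2D stretch held 23 CpG and 65.6% G or C, the SMARCA4 stretch 44 CpG and 82.4%, and the TET2 stretch 34 CpG and 72.8%. The median over all 35116 RefSeq promoter entries was 11 CpG (interquartile range 3 to 23) and 58% G or C. All 9 genes were matched, with 13 entries. Every gene had an entry with at least 23 CpG, the most being 48 in KMT2C, while the other TET2 and SMARCA4 entries had 10 and 4. By the entry with the most CpG, a window without a peak and windows with many both belonged to genes with a CpG-rich start. Whether CpG number goes with peak number was not tested. Of 4 motifs searched on both strands, the GC box GGGCGG occurred in 10 of the 13 entries (8 of the 9 genes), against 42.6% of all entries. The E-box CACGTG occurred in the KMT2D entry and in the first TET2 entry (6.34% of all entries). The ETS motif CCGGAAG (8.52%) and the octamer ATGCAAAT (1.63%) occurred in 0 of the 13. These matches describe letters only and do not show binding.

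Listed KMT2D peaks lay around 8 of the 9 genes and were most numerous at the BAF genes. The SMARCA4 window held 15 peaks and the ARID1A window 12, and the KMT2C and KMT2A windows held 6 each. KMT2D, CREBBP and EP300 had 4 each, EZH2 had 1 and TET2 had 0. Holding a peak is common at these lengths. For the 8 windows with peaks, consecutive stretches of the same length on the same chromosome were empty in 19.7% (SMARCA4) to 58.9% (KMT2D) of cases. Because the windows differ in length, from 130 kb at KMT2D to 400 kb at KMT2C, the counts are also given per 100 kb. SMARCA4 had 7.5 peaks per 100 kb (exact Poisson 95% interval 4.20 to 12.4) and ARID1A 6.32 (3.26 to 11.03). KMT2A had 3.16 (1.16 to 6.87) and KMT2D 3.08 (0.838 to 7.88), followed by EP300 with 2.11 (0.574 to 5.39). CREBBP had 1.6 (0.436 to 4.10), KMT2C 1.5 (0.550 to 3.26) and EZH2 0.556 (0.0141 to 3.10). Neighbours in this order had overlapping intervals throughout. At TET2 the count of 0 gave an interval of 0 to 1.604. The SMARCA4 interval lay above those of CREBBP, KMT2C, EZH2 and TET2, and the ARID1A interval lay above those of EZH2 and TET2. All intervals cover counting error over peaks only, and peaks that lie side by side are not independent, so the true uncertainty is larger.

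**Figure D1:**
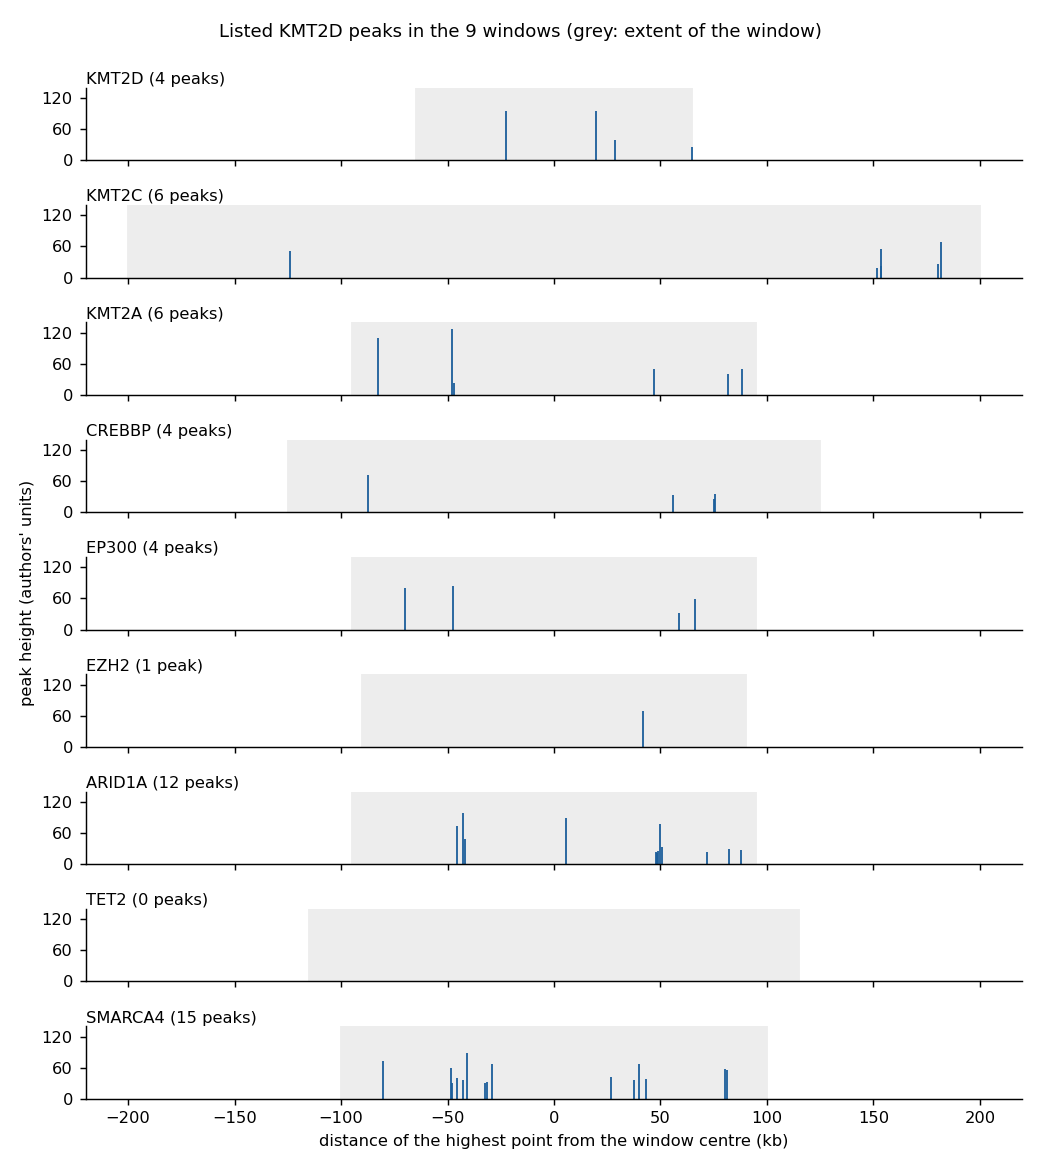
Each row is 1 window, the x axis gives the distance of a peak's highest point from the window centre in kb, and the height of a line is the peak height in the authors' units. Grey marks the extent of the window. SMARCA4 and ARID1A hold the most lines (15 and 12), KMT2C has a long stretch without a peak, and TET2 has none.

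Set against their own chromosomes, the windows together held more peaks than their length alone would give. The 52 peaks stood against 22.7 expected from the density of the rest of each chromosome, a ratio of 2.29 (95% interval 1.71 to 3.001). That density counts the whole length between the first and last peak, with any part where reads cannot be placed. Such parts lower the density and raise the ratios, by an amount that was not measured. The ratio was above 1 in 6 windows, and its interval lay wholly above 1 in 3 of the 9. These were ARID1A with 6.38 times the expected number (3.29 to 11.1), KMT2A with 3.28 times (1.20 to 7.13) and SMARCA4 with 2.83 times (1.58 to 4.66). KMT2D had 3.14 times the expected number, on 4 peaks (0.855 to 8.03). At EP300 the ratio was 0.994 (0.271 to 2.55), so that this window was as full as the rest of chromosome 22 within a wide interval. In consecutive stretches of the same length on the same chromosome, 2.52% held as many peaks as ARID1A or more, 6.46% as many as SMARCA4, 9.49% as many as KMT2A and 11.5% as many as KMT2D. Counted in bases, listed peaks covered 4.25% of the ARID1A window and 4.11% of the SMARCA4 window, against 0.682% and 1.67% of the rest of chromosomes 1 and 19. They covered 3.09% at KMT2A and 2.71% at KMT2D, and 0.740% at CREBBP, where the rest of chromosome 16 had 0.845%.

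Against their immediate surroundings the windows did not stand out. The 1 Mb on each side of the windows predicted 48.9 peaks, which put the ratio of the 9 windows at 1.06 (0.795 to 1.395). No window had an interval wholly above or below 1 in this comparison, and the ratio was above 1 in 4 windows and below 1 in 5. SMARCA4 had 1.63 times the density of its surroundings (exact conditional 95% interval 0.877 to 2.83), ARID1A 1.47 times (0.731 to 2.70) and KMT2D 1.23 times (0.323 to 3.35). CREBBP had fewer peaks than its surroundings, at 0.432 times (0.115 to 1.15), since the 1 Mb stretches beside it held 74 peaks. The higher density set against whole chromosomes was thus not seen when each window was set against the stretches beside it.

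**Figure D2:**
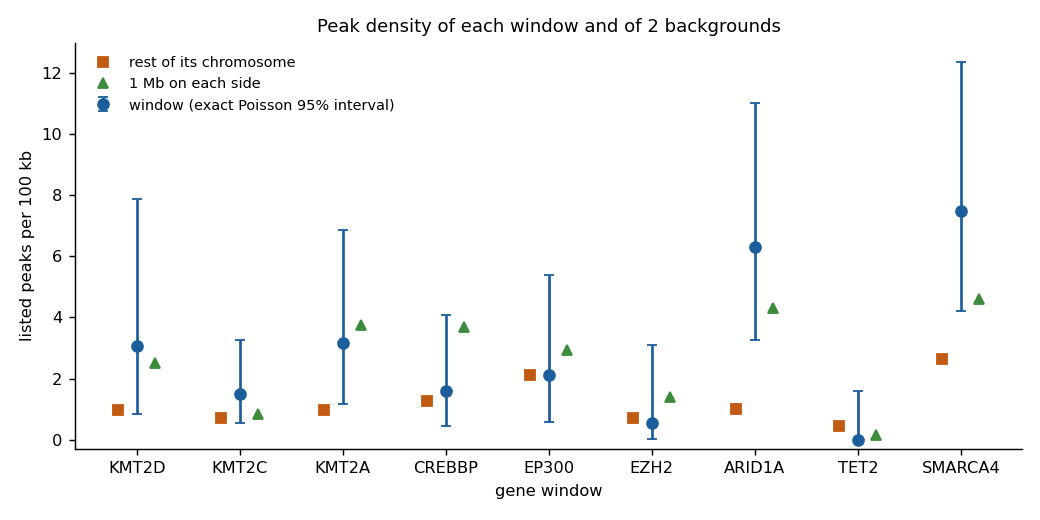
The y axis gives listed peaks per 100 kb for each window (circles, with exact Poisson 95% intervals), for the rest of its chromosome (squares) and for the 1 Mb on each side (triangles). The ARID1A, KMT2A and SMARCA4 intervals lie above the squares, and every interval includes its triangle.

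The window around KMT2D held 2 tall peaks and 2 low ones. The first spanned 49412107 to 49413085 on chromosome 12 and had a height of 95, a score of 43.4 and a significance value of -59.5. The second, at 49453286 to 49455105, was 1819 bp wide and reached a height of 96, with a score of 42.1 and a significance value of -57.2. Their highest points were 42.1 kb apart, and 95.2% and 95.7% of the chromosome 12 peaks were lower. The height of 96 was 2.46 times the median of that chromosome (39) and ranked 54 of 1313. It was the second tallest of the 54 peaks within 1 Mb of the window. The other 2 were a peak of 604 bp at 49463326 to 49463930 with a height of 39, and one of 119 bp at 49499553 to 49499672 with a height of 25. The peaks of height 96 and 39 formed a cluster over 10.6 kb, clusters here being peaks separated by at most 12.5 kb. The peak of height 25 lay 0.398 kb inside the end of the window, and the nearest peak outside any window edge lay 4.44 kb beyond that same end, with a height of 52, and formed a cluster with it. In the GRCh38 gene order, PRKAG1 and RHEBL1 flank KMT2D.

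The window of the paralog KMT2C held 6 peaks in 400 kb, none taller than 68, and they were not placed relative to the gene. A lone one, spanning 151855734 to 151856528 on chromosome 7, had a height of 51. It was followed by 275 kb without a listed peak, the longest stretch between neighbouring peaks in any of the windows. Beyond this stretch lay a cluster of 3 peaks within 2.36 kb, with heights of 19, 23 and 55, and a cluster of 2 within 1.54 kb, with heights of 27 and 68. The tallest peak in the KMT2C window, at 152160731 to 152161957, was lower than 177 others on chromosome 7 (rank 178 of 1147). Peak density in the KMT2D window was 2.05 times that in the KMT2C window, with an exact conditional 95% interval of 0.426 to 8.65. The 2 windows could thus not be told apart by density. The height of 19 is near the lowest listed on chromosome 7 (17), and no peak under 20 was listed on chromosome 12, so counts of low peaks are not strictly comparable between them.

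The KMT2A window held the tallest peak of the 52. This peak spanned 118305116 to 118307504 on chromosome 11, was 2388 bp wide and had a height of 127, a score of 53.6 and a significance value of -76.7. This was 3.17 times the chromosome median, rank 20 of 1297, and the tallest of the 81 peaks within 1 Mb of the window. Only 2.41% of consecutive stretches of that length on chromosome 11 held a peak as tall. A second tall peak, at 118271696 to 118272764 with a height of 110, lay 32.4 kb before it. The other 4 KMT2A peaks had heights of 22, 40, 50 and 50, so the 2 tall peaks stood well apart from the rest. The tallest formed a cluster over 3.25 kb with the peak of height 22, and peaks of height 40 and 50 formed another over 7.12 kb. In the gene order KMT2A is flanked by ATP5MG and TTC36.

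The windows of the acetyltransferase genes held 4 peaks each, and whether a peak lay in the named gene or a neighbour was not determined. In the CREBBP window the tallest peak, on chromosome 16 at 3767092 to 3767987, had a height of 72. A stretch of 142.8 kb without a listed peak separated it from the next. The other CREBBP peaks had heights of 34, 25 and 35, the latter pair in a cluster over 1.17 kb, and its tallest ranked 20 among the 78 peaks within 1 Mb of the window. At EP300 the 4 peaks had heights of 81, 85, 31 and 59, the last pair in a cluster over 7.88 kb. The tallest, on chromosome 22 at 41487134 to 41488938, was 1804 bp wide, and a narrower peak of 567 bp lay 21.6 kb before it. That narrower peak had the higher score (45.3 against 33.8) and the lower significance value (-53.5 against -43.2), so height and the authors' 2 score columns ordered this pair differently. The density ratio of EP300 to CREBBP was 1.32 (0.245 to 7.06), which does not tell them apart. Their median heights were 70 and 34.5, on 4 peaks each and with overlapping ranges.

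EZH2 had a single listed peak, and it was broad. It lay on chromosome 7 at 148580455 to 148582534, with a width of 2079 bp, a height of 70 and a significance value of -46.3. On that chromosome 85.6% of peaks were lower. Its nearest listed neighbour was 55.4 kb away. Peaks wider than 2000 bp made up 2 of the 52 members, here and at KMT2A, against 2.22% of the whole list, and 2 peaks are too few to set the shares apart (3.85%, exact binomial 95% interval 0.469 to 13.2%). In the gene order EZH2 lies between CUL1 and PDIA4.

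ARID1A combined tall peaks with many low ones. On chromosome 1, 3 peaks within 5.80 kb, from 27018635 to 27024437, had heights of 74, 98 and 48 and covered 69.1% of that stretch. The first of them was the widest ARID1A peak, at 1474 bp. A lone peak at 27070365 to 27071194 had a height of 90 and, at 54.6, the highest score of all 52 members. A further group of 5 peaks within 3.24 kb, from 27112773 to 27116010, had heights of 24, 22, 25, 78 and 34. In it a single tall peak was listed with lower ones 168 to 253 bp from their neighbours. The last 3 peaks of the window, a cluster over 16.5 kb, had heights of 23, 29 and 27. When peaks under 500 bp apart were merged, the 12 ARID1A peaks became 7, and at a common minimum height of 26 they were 8. The ratio to the rest of chromosome 1, treated the same way, was then 4.39 (1.76 to 9.04) and 5.29 (2.28 to 10.4), lower than 6.38 and still with intervals above 1.

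SMARCA4 had the largest cluster. On chromosome 19, 8 peaks spread over 20.2 kb, from 11071194 to 11091377, with heights of 31 to 89. Its tallest peak lay at 11078952 to 11079861. A second cluster of 4 peaks over 16.8 kb, from 11146470 to 11163307, had heights of 43, 36, 67 and 39 and included the widest SMARCA4 peak, at 1217 bp. A close pair at the end of the window had heights of 57 and 55. A lone peak of height 73 lay 31.3 kb before the first cluster. Chromosome 19 peaks were tall in general (median 51), and 40.5% of consecutive 200 kb stretches there held a peak at least as tall as 89. The common minimum height of 26 is the lowest listed on chromosome 19, so it could remove none of the 15 SMARCA4 peaks. After merging 12 were left, and the window was 2.6 times as dense as the rest of chromosome 19 (1.34 to 4.54). Peak density at ARID1A was 0.842 times that at SMARCA4 (0.360 to 1.93).

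TET2 stood apart as the window without a listed peak. Its 230 kb on chromosome 4 would have held 1.03 peaks at the density of the rest of that chromosome, and 67.1% of consecutive stretches of this length on chromosome 4 held none. The empty stretch was much longer than the window. The nearest listed peaks lay 1900.01 kb before it (height 62) and 144.6 kb after it (height 63), so that 2275 kb passed without a peak. Of the 852 gaps between neighbouring peaks on chromosome 4, 19 (2.23%) were as long or longer. These long gaps made up 40.2% of the total length of gaps on that chromosome, so a position there often falls in one. At this expected number an empty window is common, and a region without a listed peak cannot be called free of KMT2D at unknown depth.

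Over all members, peak heights ran from 19 to 127, with a median of 45.5 (order-statistic 95% interval 35 to 59), against 39 for the 24772 peaks on chromosomes 1 to 22 and X. The interval of the members held the list's median, so no difference could be shown. Of the 52, 19 (36.5%, exact binomial 95% interval 23.6 to 51.04%) were at or above a height of 59, the upper quartile of the list, which 25.9% of all peaks reached because of ties. Each of the 8 windows with peaks had at least 1 of them, and how often other stretches of these lengths do was not computed. A peak as tall as the window's tallest occurred in 2.41% (KMT2A) to 40.5% (SMARCA4) of consecutive stretches of the same length and chromosome. Measured against the upper quartile of their own chromosome, 15 of the 52 (28.8%; 17.1 to 43.1%) passed, against 25.5% of all peaks. SMARCA4 had 5 such peaks by the first measure and 2 by the second, and EP300 had 3 and 2, while the other counts were equal. None of the 52 was among the 30 peaks listed at minus infinity for significance, and their significance values ran from -77.7 to -16.1.

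**Figure D3:**
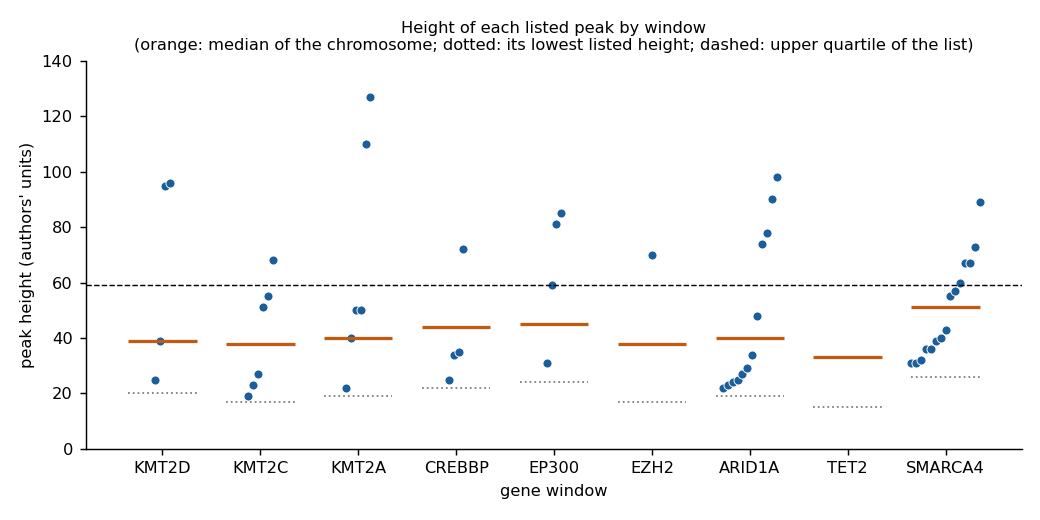
Points are the heights of single peaks in the authors' units, by window. The orange lines mark the median height of the chromosome, the dotted lines its lowest listed height, and the dashed line the upper quartile of the list (59). The tallest peak of each of the 8 windows with peaks lies above the orange line, which sets a window's maximum against a median of single peaks. KMT2A reaches 127.

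The widths of the members resembled those of the list, with a median of 591 bp (362 to 794 bp) against 609 bp. Narrow peaks, no wider than 200 bp, numbered 12 (23.1%; 12.5 to 36.8%), against 21.0% of all peaks, and were low, with heights of 22 to 34. The tallest peak was also the widest in 6 of the 8 windows, the exceptions being ARID1A and SMARCA4, which held the most peaks. At EZH2, with 1 peak, this had to be so. No such share was computed for other stretches, so it is not shown to be a trait of these windows. Of the 52, 41 lay in clusters (78.8%; 65.3 to 88.9%), against 63.4% of all peaks. They formed 14 clusters, and 11 peaks were alone. ARID1A and SMARCA4 supplied 25 of the 41, and in the other windows 16 of 25 peaks (64%) were clustered, near the share of the list. After merging peaks under 500 bp apart the clustered share of the members was 63.4% (46.9 to 77.9%) against 50.9% of the list. That interval included the list's value, and so did those of other settings given at the end. Another listed peak lay under 500 bp away for 19 of the 52 (36.5%; 23.6 to 51.04%), against 27.3% of all peaks, an interval that includes the value of the list. The median distance to the nearest listed peak was 1.75 kb for members and 4.66 kb for the list, and the interval of the former, 0.388 to 5.84 kb, included the latter.

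**Figure D4:**
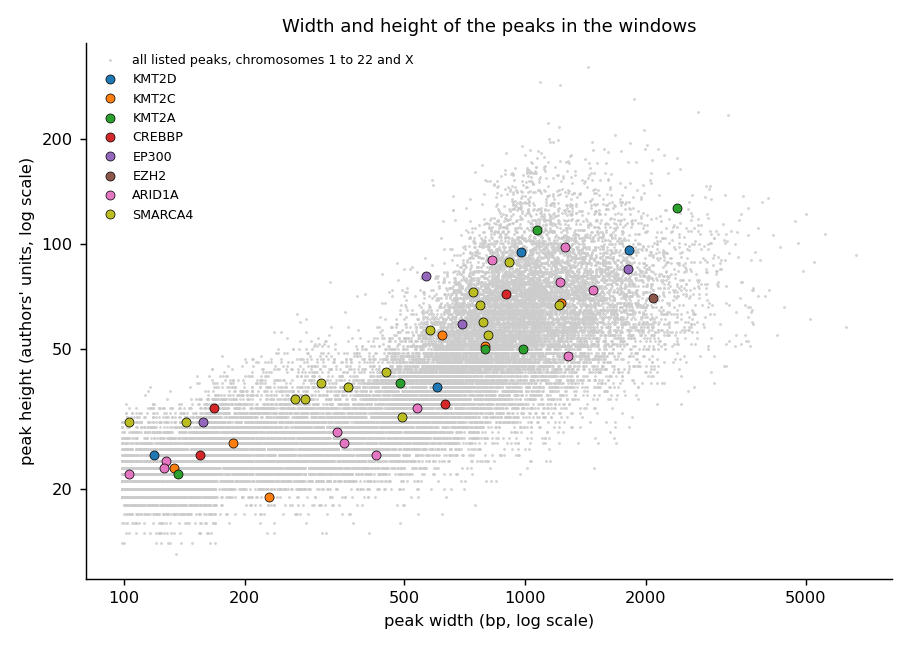
Each coloured point is 1 of the 52 peaks, with its width in bp and its height in the authors' units on log axes, over all listed peaks in grey. Members lie within the cloud of the list, from narrow low peaks of 103 bp to the KMT2A peak of 2388 bp and height 127.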

How the data were processed

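One ChIP library of the OCI-LY7 line, precipitated with a KMT2D antibody, gave 1 deposited list of peaks with 11 columns and no header, whose columns were identified from their values. Positions are on hg19 and CASAVA 1.8.2 was used, per the submitters' processing notes. No aligner, peak caller or cutoff is named in the sources used here, nor how the input was used. The authors deposited a signal per peak, a whole number called height here, and 2 score columns. One is positive and is called the score, and the other is negative like the logarithm of a p-value, of unstated base, and is called the significance value. The deposited position of the highest point, in percent of the width, was recovered within 1 percentage point. Whether heights were scaled or input-subtracted is not stated, and depth is unknown. All heights and scores are the authors' own.

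Chromosome Y was left out. All 9 windows are described by the naming rule, with the tallest and widest peak and the clusters of each, and every peak at KMT2D. The genes and measures were chosen with earlier results of these data known. Expected numbers came from the rest of each chromosome, between its first and last peak, or from 1 Mb on each side. Parts where reads cannot be placed were not taken out of these lengths or of the consecutive stretches. Intervals are exact at 95% and no p-value was computed. Stitching, intervals and ratios were tested on simulated data. For the ratios and their intervals the simulated peaks were placed independently, whereas 63.4% of the listed peaks lay in clusters. The simulation thus did not check the intervals for clustered peaks. The alternatives were score, merging, window edges, background and stitching, and a common height was added after seeing the data. Distances to genes, and the other subunits of these complexes, were not analysed here, since no hg19 annotation was used. Computations ran in Python 3.11.15 (scipy 1.17.1, numpy 2.4.6, pandas 2.3.3), and plots in matplotlib 3.10.9.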

Additional observations from a re-analysis of the deposited data

How the results depend on the processing

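Of 41 alternative values, 34 stayed within the 95% counting interval of the reported value (or, for the number of peaks, within 1.5 times), and 7 did not. A change of direction was defined for the density ratio only, and 0 of its values showed one. Membership by any overlap picked the same 52 peaks, so its values, counted among the 34, could not differ. The excess over the chromosomes depended on the background: with 1 Mb on each side the density ratio was 1.06, against 2.29, and it was 2.03 to 2.39 under the other alternatives that kept all windows. Keeping the highest-scoring 50% of peaks left 29 members of median height 68 and median width 895 bp, with 37.9% in clusters. The same cut put all listed peaks at a median height of 59, a median width of 935 bp and 36.5% in clusters. Fewer members follow from that construction, and across all listed peaks score and height had a Spearman correlation of 0.96. The clustered share was 63.4% after merging peaks under 500 bp apart (all peaks 50.9%) and 59.6% after stitching at 5 kb (all peaks 50.8%). Under these 3 settings the members' intervals included the share of all peaks, unlike the interval reported above. They also did after stitching at 25 kb (71.9 to 93.1%, all peaks 73.7%) and at the common height (51.5 to 80.9%, all peaks 54.4%). With windows widened or narrowed by 20 kb they were 63.0 to 86.8% and 62.4 to 89.4%, against 63.4% of all peaks. Without ARID1A (58.8 to 87.3%) or SMARCA4 (55.9 to 86.2%) the interval also included 63.4%, and without any other window it did not. A higher clustered share than in the list thus depended on these choices. Leaving out each window in turn moved none of 54 values: 37 to 52 peaks, density ratio 1.92 (without ARID1A) to 2.57, median height 41.5 to 50, median width 572.5 to 621 bp, 33.3 to 39.1% at or above the list's upper quartile and 73.0 to 81.2% in clusters. The TET2 window held no peak, so leaving it out could change only the density ratio. No window held more than 15 peaks, so the number of peaks could not leave its limit of 1.5 times. The other values shared most members with the full set, which makes a move unlikely. No paired analysis was possible because there was 1 ChIP library and no test. Unknown depth limits what the absence of a peak can show.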
